A study of Caenorhabditis elegans with 58 samples.

Results

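The metallothionein genes mtl-1 and mtl-2 of Caenorhabditis elegans were followed across every library of an RNA-seq study of H3K4 methylation, parental environment and descent. They were taken as the rows named mtl-1 and mtl-2, which are 2 of the 45410 gene entries in each count file, and both were read in all 58 libraries. Metallothioneins are small, cysteine-rich proteins that bind zinc, copper and cadmium and so buffer metals and protect against their toxicity. In C. elegans, both are known to be induced by cadmium in the intestine, and mtl-1 is also expressed constitutively in the pharynx. mtl-1 is further known to respond to heat shock and to insulin signalling, as a target of the FOXO factor DAF-16.

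The study asked whether the loss of H3K4 methylation and the conditions of the parents change gene expression in their offspring. All libraries were made from pools of whole animals at the mid-L4 larval stage, from independent experiments or independent lines. In the parental-conditions experiment, 9 groups of 4 libraries were compared. The set-2(zr1208) groups, homozygous for a point mutation in the SET domain of the H3K4 methyltransferase set-2, were F1-25C (1 generation at 25°C), F1-4DOA (progeny of hermaphrodites on day 4 of adulthood, 20°C) and F1-1DOA (progeny of hermaphrodites on day 1, 20°C). The wild-type (WT) groups were F1-back (animals returned from 25°C to 20°C for 1 generation), F1-25C, 1DOAx4DOA (young males crossed to day 4 hermaphrodites), 1DOAx1DOA (young males crossed to day 1 hermaphrodites), F1-4DOA and F1-1DOA, the last being the untreated WT control at 20°C. The sources differ on how many generations the ancestors of F1-back spent at 25°C. The study's methods describe crosses between ages with males that carried oyIs14, a GFP reporter on chromosome V, which also identified the cross-progeny. Whether the sequenced cross-progeny came from such crosses is not stated. In the outcross experiment, WT males were crossed to set-2(zr1208) hermaphrodites, and mutant lines (MUT-des) and WT lines (WT-des) descended from this cross were compared with WT-ctrl lines, from WT males and WT hermaphrodites, at generations F5 and F3, all at 20°C. Per the study's methods, the descendants used for sequencing stem from the same cross, so lines of MUT-des and WT-des are not independent of each other in their origin. There were 3 MUT-des, 4 WT-des and 4 WT-ctrl libraries at each generation. The set-2 allele is a point mutation, so the count of set-2 does not check the genotype labels.

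The deposited values are raw counts per gene. Totals per library ranged from 2819460 to 31543107 in the parental-conditions experiment and from 14071245 to 25733464 in 21 outcross libraries. WT-ctrl F5 replicate 2, with 1271186 counts, was left out of the outcross values. Levels are given as CPM, the count relative to a library's total in the usual unit, with TMM factors that adjust for differences in composition between libraries. Changes were tested in edgeR by quasi-likelihood over 15306 genes in the parental-conditions experiment and 15872 in the outcross experiment, with Benjamini-Hochberg adjustment over all of them. A gene is said to be called where its adjusted p was below 0.05 and its log2 fold change lay beyond 1 in either direction. Both metallothionein genes passed the filter on low counts in both experiments. In whole animals, fewer cells of a type and less RNA per cell cannot be told apart. Of 13 intestine markers, 11 passed the filter in the parental-conditions experiment, and their expression is given beside the results.

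In the Ensembl annotation of the WBcel235 genome, mtl-1 (WBGene00003473) and mtl-2 (WBGene00003474) both lie on the reverse strand of chromosome V. Each has 2 exons. The exons of mtl-1 sum to 373 bases and encode 75 residues, and those of mtl-2 sum to 347 bases and encode 63 residues. Neither gene overlaps another gene in that annotation, which matters because the libraries carry no strand information. The files were counted on an older genome release, so the annotation was used only for names and lengths.

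mtl-2 was the abundant member in every group. Per kilobase of exon, mtl-2 averaged 953 CPM in WT F1-1DOA and mtl-1 6.44 CPM, a 148-fold difference between levels. Over all 15 groups, the ratio of these mean levels per kilobase was lowest in set-2 F1-25C, at 10.2-fold, and WT F1-25C, at 15.99-fold. Without replicate 4 of set-2 F1-25C it was 36.3-fold in that group, and WT F1-25C was then the lowest. In the 13 groups at 20°C it lay between 94.9-fold in set-2 F1-1DOA and 335-fold in WT-ctrl F3. In counts, mtl-2 ranged from 501 to 9457 and mtl-1 from 0 to 974 in the parental-conditions libraries. The outcross libraries held 578 to 3254 counts of mtl-2, but only 4 to 16 counts of mtl-1, so that a value for mtl-1 there rests on few reads. A count of 4 has an exact 95% Poisson interval of 1.09 to 10.2 counts. Such intervals cover counting error only.

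The level of mtl-1 separated the groups at 25°C from those at 20°C. In set-2 F1-25C, mtl-1 had 7.09, 7.24, 5.55 and 84.4 CPM. In WT F1-25C it had 9.95, 9.08, 17.9 and 20.6 CPM. Replicate 4 of set-2 F1-25C stood far above the other 3 libraries of its group, and all but 1 of the 8 values at 25°C lay above every value at 20°C. The lowest group was WT F1-back, with 0.178, 0.158, 0.354 and 0.816 CPM from 2 to 9 counts. WT 1DOAx4DOA had 1.26, 1.095, 0.688 and 0.635 CPM, and WT 1DOAx1DOA had 2.06, 0, 0.423 and 0.709 CPM. The 0 was a count of 0 among 17287415, which allows up to 0.174 CPM when 3 counts are taken as the limit. In set-2 F1-4DOA it was at 0.949, 0.625, 0.695 (from 2 counts) and 0.571 CPM, and in WT F1-4DOA at 0.882, 0.357, 0.854 and 1.02 CPM. In set-2 F1-1DOA it had 2.28, 2.43, 5.87 and 1.56 CPM, and in WT F1-1DOA 1.17, 1.59, 3.68 and 3.16 CPM. These were the highest groups at 20°C, and 1 library of set-2 F1-1DOA exceeded 1 library of set-2 F1-25C. The order of the group means ran over 69.3-fold from set-2 F1-25C at the top to WT F1-back at the bottom, and in that order WT F1-25C and the next group, set-2 F1-1DOA, were the only neighbours whose libraries did not overlap. Both the top place and the span rested on replicate 4 of set-2 F1-25C. Without it, set-2 F1-25C averaged 6.63 ± 0.935 CPM (SD, n = 3), WT F1-25C stood at the top, 38.2-fold above WT F1-back, and these 2 groups at 25°C were the only neighbours without overlap.

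mtl-2 showed another order, with the untreated control at the top. In set-2 F1-25C mtl-2 had 264, 228, 179 and 316 CPM, and in WT F1-25C 80.5, 79.5, 370.4 and 325 CPM. The libraries of WT F1-25C fell into a low pair, replicates 1 and 2, and a high pair, replicates 3 and 4, for which the labels give no batch. WT F1-back had 55.7, 43.9, 76.6 and 70.3 CPM, WT 1DOAx4DOA 109.6, 114, 81.7 and 84.9 CPM, and WT 1DOAx1DOA 94.96, 44.7, 103 and 102 CPM. Every library of these WT groups lay below the lowest library of WT F1-4DOA. In set-2 F1-4DOA mtl-2 had 44.4, 153, 174 and 50.5 CPM, and in WT F1-4DOA 274, 169, 138 and 205 CPM. In set-2 F1-1DOA it had 145, 311, 362 and 254 CPM, and in WT F1-1DOA 249, 282, 382 and 409 CPM. Those groups of progeny from young mothers overlapped. The group means ran over 5.37-fold, and every group overlapped its neighbour in the order.

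Replicates 3 and 4 lay above replicates 1 and 2 for both genes in WT F1-25C, WT F1-back and WT F1-1DOA. Over all genes, chi-square per gene was 5.66 to 17.9 between replicates 1 and 2 or 3 and 4 of these groups, and 20.8 to 55.7 between libraries across these pairs. The results in WT are therefore also given within the pairs, and with a term for replicates 3 and 4 of these 3 groups in the fit, an alternative chosen after the values were seen.

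**Figure D1:**
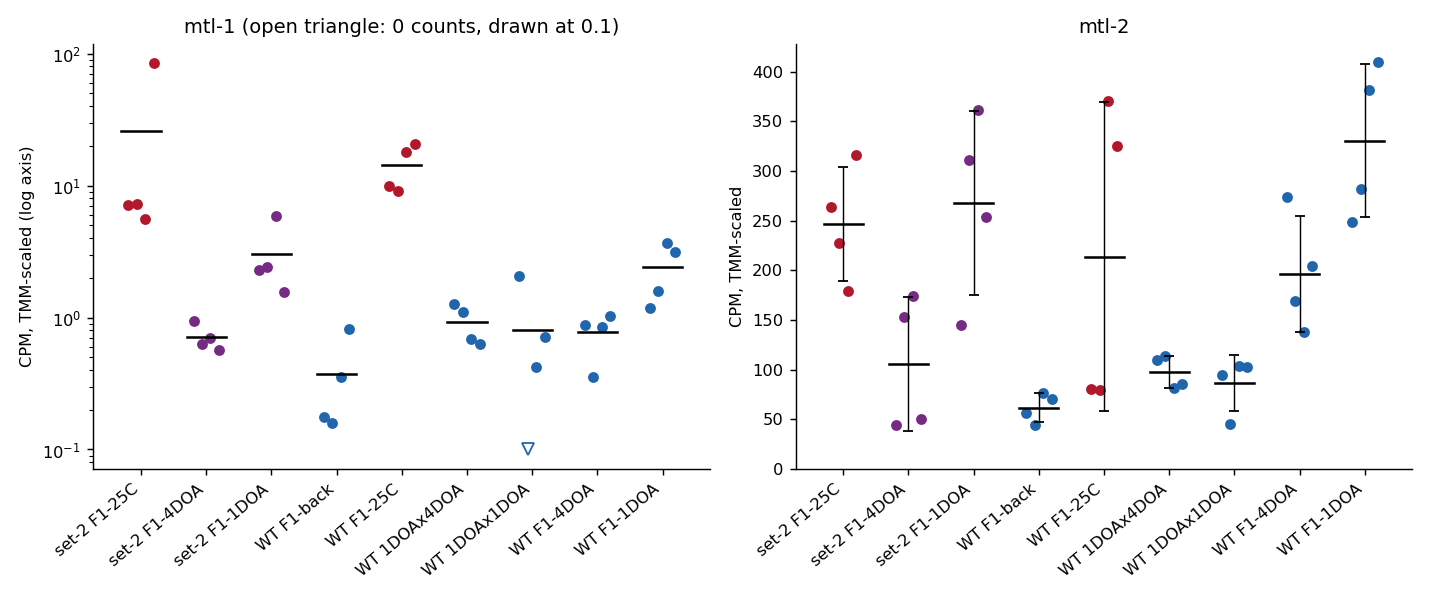
CPM of mtl-1 (left, log axis) and mtl-2 (right, linear axis) in the 36 parental-conditions libraries. Each point is a library, red for groups at 25°C, purple for set-2 and blue for WT at 20°C; horizontal bars are group means, vertical bars on the right are SD, and the open triangle is the library with 0 counts of mtl-1. mtl-1 is highest in both groups at 25°C, and mtl-2 is lowest in WT F1-back.

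mtl-1 was higher in F1-25C than in F1-1DOA. In WT, mtl-1 averaged 14.4 ± 5.73 CPM in F1-25C and 2.402 ± 1.21 CPM in F1-1DOA (SD, n = 4 each), and the ranges did not overlap. The log2 fold change was 2.55 (SE 0.70, edgeR adjusted p = 0.0205), and 4.99% of all genes were called in this comparison. The call was lost without WT F1-1DOA replicate 1, 2 or 4 or WT F1-25C replicate 4, with log2 fold changes from 2.27 to 2.68 and edgeR adjusted p from 0.0534 to 0.085. mtl-2 averaged 214 ± 156 CPM in WT F1-25C and 331 ± 77.1 CPM in WT F1-1DOA, with overlapping ranges and a log2 fold change of -0.63 (SE 0.43, edgeR adjusted p = 0.462). In replicates 3 and 4, mtl-1 averaged 19.2 CPM in WT F1-25C and 3.42 CPM in WT F1-1DOA, and in replicates 1 and 2 it averaged 9.51 CPM in WT F1-25C and 1.38 CPM in WT F1-1DOA. mtl-2 averaged 348 CPM in WT F1-25C and 396 CPM in WT F1-1DOA in replicates 3 and 4, but 79.97 CPM in WT F1-25C and 266 CPM in WT F1-1DOA in replicates 1 and 2. With the term for replicates 3 and 4, the log2 fold changes were 2.63 for mtl-1 (edgeR adjusted p = 0.015) and -0.88 for mtl-2 (edgeR adjusted p = 0.154). In set-2, mtl-1 averaged 26.1 ± 38.9 CPM in F1-25C and 3.03 ± 1.93 CPM in F1-1DOA (SD, n = 4 each). Its log2 fold change was 3.15 (SE 0.70, edgeR adjusted p = 0.00578), where 2.97% of all genes were called. Without replicate 4 of set-2 F1-25C it was 1.17 (edgeR adjusted p = 0.163), so the call in set-2 rested on that library. It was also lost when the fit held only these groups (log2 fold change 3.17, edgeR adjusted p = 0.183). mtl-2 did not pass the test in set-2 (log2 fold change -0.12, SE 0.43, edgeR adjusted p = 0.895).

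Over both genotypes together, a comparison chosen after the values were seen, mtl-1 rose at 25°C by a log2 fold change of 2.85 (SE 0.49, edgeR adjusted p = 0.000187). In that comparison 3.25% of all genes were called. Without replicate 4 of set-2 F1-25C the value was 1.86 (edgeR adjusted p = 0.000435). mtl-2 had a log2 fold change of -0.37 there (SE 0.30, edgeR adjusted p = 0.455). Whether the temperature effect differed between set-2 and WT was tested by an interaction term, which was 0.60 for mtl-1 (SE 0.96, edgeR adjusted p = 0.835) and 0.51 for mtl-2 (SE 0.60, edgeR adjusted p = 0.755), against 2.68% of all genes called. Without that replicate the term for mtl-1 was -1.37 and was not called either.

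The count ratio of mtl-2 to mtl-1 within a library, which does not depend on scaling between libraries, showed the same separation. The log2 ratio was 5.21, 4.97, 5.004 and 1.90 in set-2 F1-25C and 3.01, 3.12, 4.37 and 3.98 in WT F1-25C. It was 5.97, 6.98, 5.93 and 7.33 in set-2 F1-1DOA and 7.67, 7.41, 6.68 and 7.01 in WT F1-1DOA. Every library at 25°C thus had a lower ratio than every library of young mothers at 20°C. The mean log2 ratio differed by -3.57 between WT F1-25C and WT F1-1DOA and by -2.28 between set-2 F1-25C and set-2 F1-1DOA, the last being -1.49 without replicate 4 of set-2 F1-25C. Each had an exact two-sided permutation p of 0.0286, the smallest that 4 against 4 libraries allow, and an adjusted p of 0.143 over 20 comparisons, so neither passed alone. Over both genotypes, again chosen after the values were seen, the mean log2 ratio was 3.95 ± 1.18 at 25°C and 6.87 ± 0.64 in F1-1DOA (SD, n = 8 each). That difference of -2.93 had an exact two-sided permutation p of 0.000155, the smallest that 8 against 8 libraries allow, and an adjusted p of 0.00326 over 21 comparisons. Because no library overlapped, the test could only give that smallest p, so it adds nothing to the separation already seen. The adjustment does not cover the later choice of this comparison. Without replicate 4 of set-2 F1-25C the difference was -2.63 (exact permutation test, adjusted p = 0.00653).

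**Figure D2:**
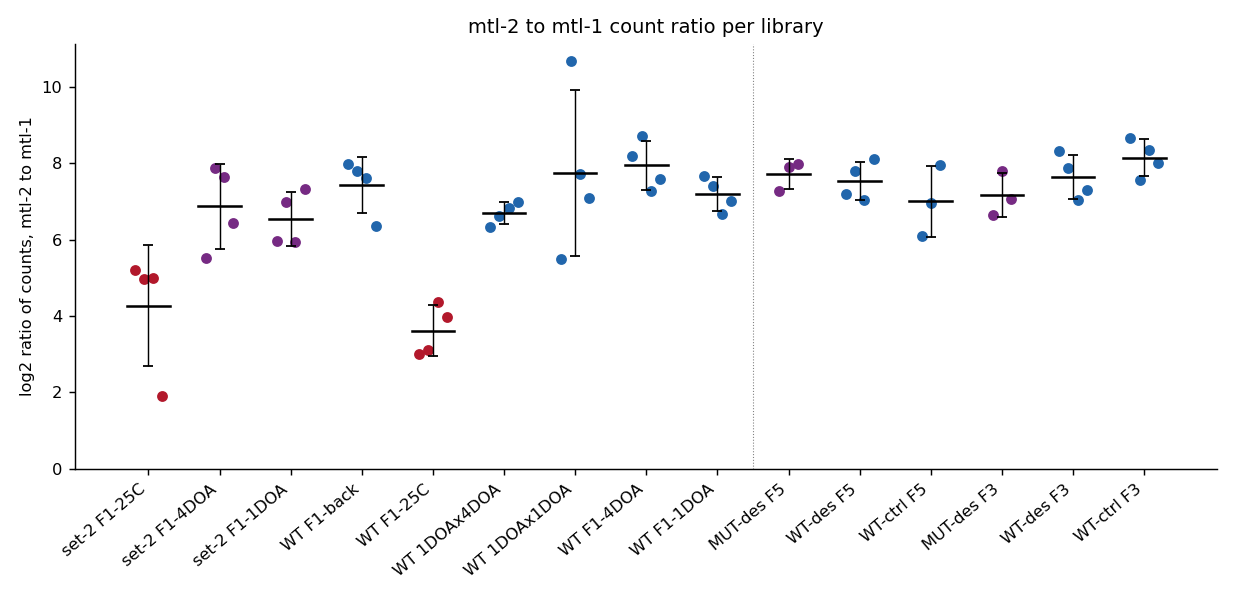
Log2 ratio of the counts of mtl-2 to mtl-1, each with 0.5 counts added, in the libraries of 15 groups; points are libraries (red at 25°C, purple mutant, blue WT at 20°C), horizontal bars are means, vertical bars are SD, and the dotted line separates the parental-conditions from the outcross groups. The groups at 25°C have means of 4.27 in set-2 and 3.62 in WT, and the highest point of WT 1DOAx1DOA is the library with 0 counts of mtl-1, where the added counts set the value.

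Both genes were lower in WT F1-back than in WT F1-25C, and mtl-2 was also lower than in WT F1-1DOA. These are separate groups of animals, and mtl-2 was similarly low in WT 1DOAx1DOA, which was kept at 20°C and overlapped WT F1-back. In the outcross experiment, which was scaled apart, WT-ctrl at 20°C also averaged less than WT F1-1DOA. WT-ctrl had 96.8 CPM of mtl-2 and 0.310 CPM of mtl-1 at F3, and 53.2 and 0.406 CPM at F5. Whether WT F1-1DOA was raised or WT F1-back and WT 1DOAx1DOA lowered was not tested. mtl-1 averaged 0.376 ± 0.306 CPM in WT F1-back and 14.4 ± 5.73 CPM in WT F1-25C (SD, n = 4 each), which were 38.2-fold apart. The log2 fold change was -5.26 (SE 0.88, edgeR adjusted p = 0.000143), and 8.23% of all genes were called. mtl-2 averaged 61.6 ± 14.7 CPM in WT F1-back and 214 ± 156 CPM in WT F1-25C, and its log2 fold change was -1.80 (SE 0.44, edgeR adjusted p = 0.0053), which did not pass in a fit of only these groups (edgeR adjusted p = 0.0579). Neither gene's ranges overlapped, and for mtl-2 the highest F1-back library, at 76.6 CPM, lay just under the lowest F1-25C library, at 79.5 CPM. mtl-2 averaged 73.4 CPM in F1-back and 348 CPM in F1-25C in replicates 3 and 4, and 49.8 CPM in F1-back and 79.97 CPM in F1-25C in replicates 1 and 2. With the term for replicates 3 and 4 its log2 fold change was -1.54 (edgeR adjusted p = 0.00522). Against WT F1-1DOA, at 331 ± 77.1 CPM, mtl-2 was 5.37-fold lower in F1-back, with a log2 fold change of -2.42 (SE 0.45, edgeR adjusted p = 0.00305). Only 0.549% of all genes, 62 higher and 22 lower, were called in that comparison, and mtl-2 was among them. The fitted log2 fold change of mtl-1 was -2.71 (SE 0.93) and did not pass (edgeR adjusted p = 0.213), although its ranges did not overlap. It was called when the fit held only these groups (log2 fold change -2.72, SE 0.501, edgeR adjusted p = 0.012). The log2 ratio of mtl-2 to mtl-1 was 7.97, 7.80, 7.62 and 6.35 in F1-back and differed by 3.82 from that in F1-25C (exact two-sided permutation p = 0.0286, adjusted p = 0.143). From that in F1-1DOA it differed by 0.24 (exact permutation p = 0.6).

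**Figure D3:**
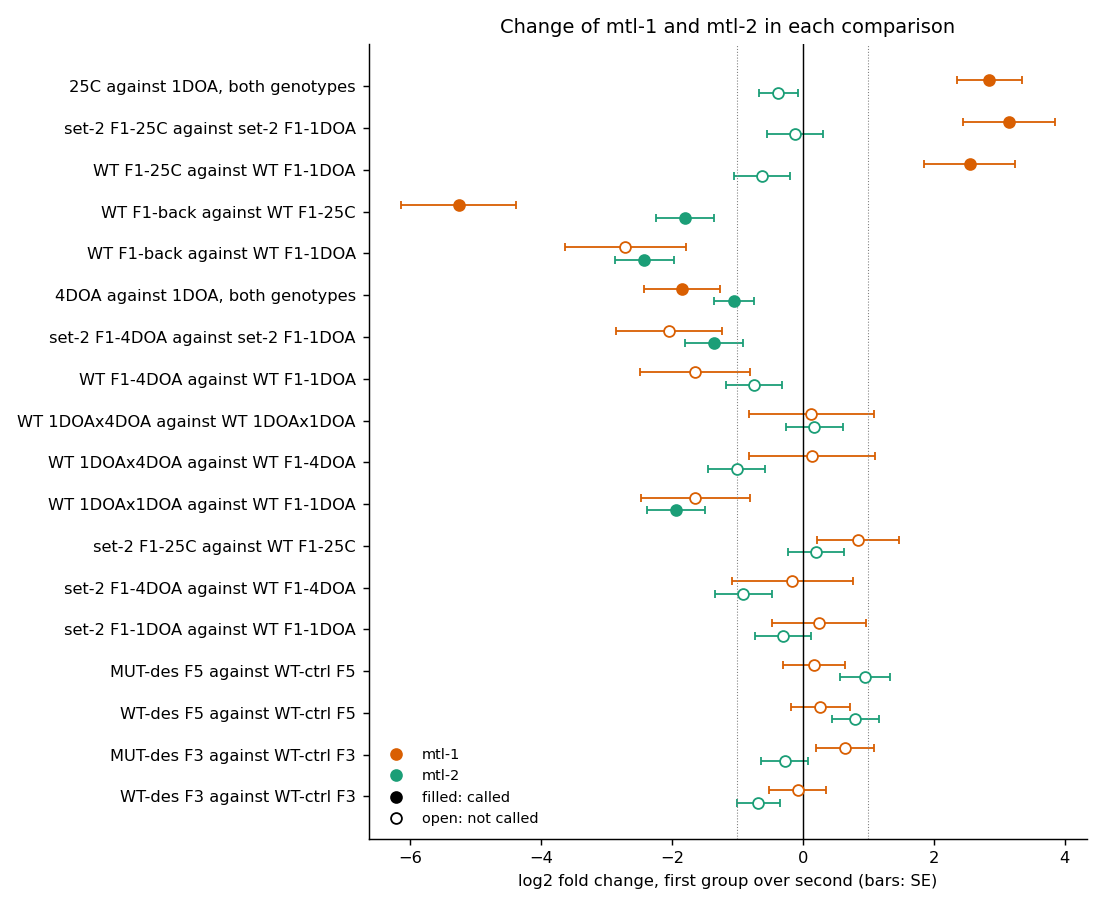
Log2 fold change of mtl-1 (orange) and mtl-2 (green), first group over second, in 18 comparisons; horizontal bars are SE, filled points were called and open points were not, and the dotted lines mark a log2 fold change of 1 in either direction. mtl-1 was called higher at 25°C, and mtl-2 was called lower in WT F1-back, set-2 F1-4DOA and WT 1DOAx1DOA.

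The mean levels of both genes were lower in the progeny of older hermaphrodites. In set-2, mtl-2 averaged 105 ± 67.5 CPM in F1-4DOA and 268 ± 93.0 CPM in F1-1DOA (SD, n = 4 each), with overlapping ranges. The log2 fold change was -1.36 (SE 0.44, edgeR adjusted p = 0.0269), and 5.98% of all genes were called in this comparison. The call was lost without 4 of the 8 libraries, namely replicates 1 and 4 of F1-4DOA and 2 and 3 of F1-1DOA, with log2 fold changes from -1.28 to -1.1. It was also lost with no filter on low counts (edgeR adjusted p = 0.0578) and when the fit held only these groups (edgeR adjusted p = 0.104). mtl-1 averaged 0.710 ± 0.167 CPM in set-2 F1-4DOA and 3.03 ± 1.93 CPM in set-2 F1-1DOA, without overlap, but its log2 fold change of -2.05 (SE 0.81) did not pass (edgeR adjusted p = 0.0658). Replicate 3 of set-2 F1-4DOA, with a total of 2819460, held only 2 counts of mtl-1 (exact 95% Poisson interval 0.242 to 7.22 counts). In that library 3 counts correspond to 1.06 CPM, so its place below set-2 F1-1DOA is uncertain. mtl-1 was called by DESeq2 (-2.12, adjusted p = 0.035), when the fit held only these groups (-2.13, SE 0.467, edgeR adjusted p = 0.0359) and without set-2 F1-1DOA replicate 4 (-2.34, edgeR adjusted p = 0.0477). In WT, neither gene was called, and 2.44% of all genes were. mtl-1 averaged 0.779 ± 0.291 CPM in WT F1-4DOA and 2.402 ± 1.21 CPM in WT F1-1DOA, again without overlap (log2 fold change -1.65, SE 0.83, edgeR adjusted p = 0.387). mtl-2 averaged 197 ± 58.4 CPM in WT F1-4DOA and 331 ± 77.1 CPM in WT F1-1DOA (log2 fold change -0.75, SE 0.43, edgeR adjusted p = 0.473).

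Over both genotypes, another comparison chosen after the values were seen, mtl-1 fell by 1.85 (SE 0.58, edgeR adjusted p = 0.0265) and mtl-2 by 1.06 (log2 fold change -1.06, SE 0.31, edgeR adjusted p = 0.0171) in F1-4DOA relative to F1-1DOA, against 2.12% of all genes called. The mtl-1 call was lost without any 1 of 5 libraries (WT F1-1DOA replicate 4, WT F1-4DOA replicates 2 and 3, set-2 F1-1DOA replicate 3 and set-2 F1-4DOA replicate 4), with adjusted p from 0.0506 to 0.0606. The mtl-2 call was lost without WT F1-4DOA replicate 3 or set-2 F1-4DOA replicate 1 or 4, where the log2 fold change came to between -0.99 and -0.93 and so missed the fold threshold. The interaction of age with genotype was -0.40 for mtl-1 (SE 1.18, edgeR adjusted p = 0.861) and -0.61 for mtl-2 (SE 0.61, edgeR adjusted p = 0.561), and 1.22% of all genes were called. The ratio of mtl-2 to mtl-1 differed by 0.75 in WT and 0.32 in set-2 on the log2 scale, with exact permutation p of 0.143 and 0.6.

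When hermaphrodites were mated to young males, the level of mtl-2 did not differ by the age of the mother beyond the spread. mtl-2 averaged 97.5 ± 16.6 CPM in WT 1DOAx4DOA and 86.3 ± 28.004 CPM in WT 1DOAx1DOA (SD, n = 4 each; log2 fold change 0.18, SE 0.43, edgeR adjusted p = 0.98), and 0.0653% of all genes were called. mtl-1 averaged 0.920 ± 0.307 CPM in WT 1DOAx4DOA and 0.798 ± 0.890 CPM in WT 1DOAx1DOA (log2 fold change 0.13, SE 0.95, edgeR adjusted p = 0.999). Cross-progeny may differ from self-progeny also in the oyIs14 reporter and in how they were picked, which cannot be told apart from mating here. Compared with the progeny of unmated mothers of the same age, mtl-2 in 1DOAx1DOA was 3.83-fold lower than the 331 ± 77.1 CPM of F1-1DOA. The ranges did not overlap, and the log2 fold change was -1.94 (SE 0.44, edgeR adjusted p = 0.0124), against 2.33% of all genes called. In 1DOAx4DOA, mtl-2 lay 2.02-fold below the 197 ± 58.4 CPM of F1-4DOA, also without overlap, but did not pass the test (log2 fold change -1.01, SE 0.43, edgeR adjusted p = 0.169), where 2.94% of all genes were called. mtl-1 did not pass in 1DOAx1DOA against F1-1DOA (log2 fold change -1.64, SE 0.83, edgeR adjusted p = 0.234) or in 1DOAx4DOA against F1-4DOA (0.13, SE 0.96, edgeR adjusted p = 0.96). The interaction of mating with age was 0.93 for mtl-2 (SE 0.61, edgeR adjusted p = 0.65) and 1.78 for mtl-1 (SE 1.27, edgeR adjusted p = 0.703), with 0.581% of all genes called. An effect of age that differed between mated and unmated mothers was thus not shown for either gene.

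Neither gene was called between set-2 and WT at any condition. At 25°C, mtl-1 had a log2 fold change of 0.84 (SE 0.63, edgeR adjusted p = 0.367) between set-2 and WT, and it turned to -1.1 without replicate 4 of set-2 F1-25C (edgeR adjusted p = 0.153). mtl-2 had one of 0.21 (SE 0.43, edgeR adjusted p = 0.781), and 6.49% of all genes were called. In the progeny of day 4 mothers, the log2 fold changes were -0.16 for mtl-1 (SE 0.93, edgeR adjusted p = 0.938) and -0.91 for mtl-2 (SE 0.43, edgeR adjusted p = 0.177), against 3.91% called. In the progeny of day 1 mothers, they were 0.24 for mtl-1 (SE 0.72, edgeR adjusted p = 0.846) and -0.30 for mtl-2 (SE 0.43, edgeR adjusted p = 0.651), against 2.72% called.

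In the outcross lines no comparison called either gene. At F5, mtl-2 had 66.7, 128 and 114 CPM in MUT-des, 62.1, 163, 95.6 and 50.9 CPM in WT-des, and 40.7, 57.1 and 61.7 CPM in WT-ctrl. At F3 it had 52.5, 127 and 59.8 CPM in MUT-des, 57.4, 72.6, 58.1 and 53.7 CPM in WT-des, and 134, 78.4, 99.5 and 75.7 CPM in WT-ctrl. WT-ctrl thus held the lowest mean of the 3 kinds of line at F5, at 53.2 ± 11.04 CPM (n = 3), and the highest at F3, at 96.8 ± 26.7 CPM (n = 4). mtl-1 lay between 0.159 and 0.707 CPM in all 21 libraries. By line its means were 0.451, 0.493 and 0.406 CPM in MUT-des, WT-des and WT-ctrl at F5 and 0.490, 0.295 and 0.310 CPM at F3.

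**Figure D4:**
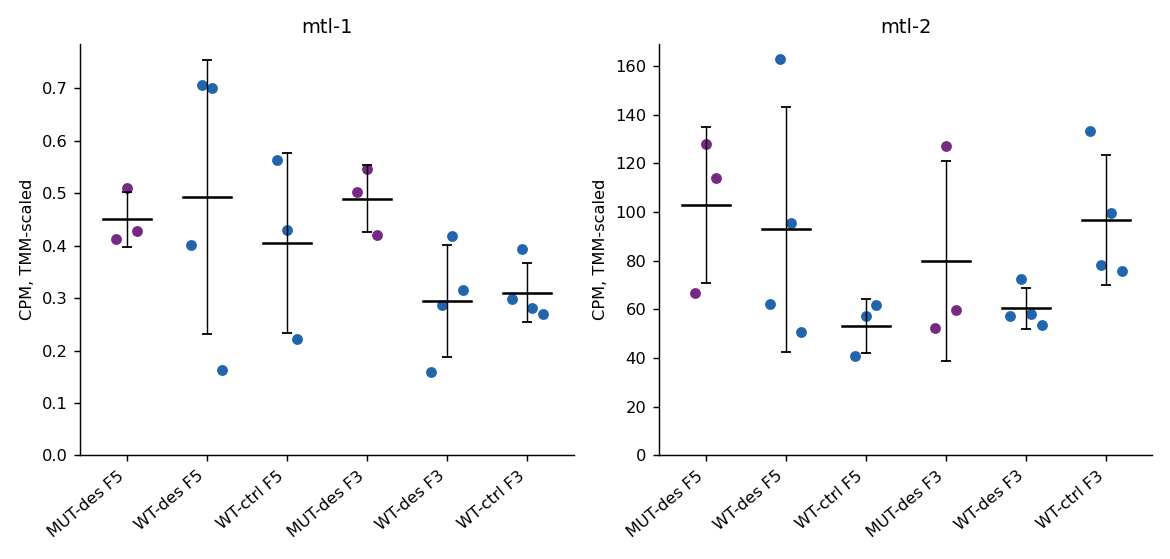
CPM of mtl-1 (left) and mtl-2 (right) in the 21 outcross libraries used, on linear axes; each point is a line (purple MUT-des, blue WT-des and WT-ctrl), horizontal bars are means and vertical bars are SD. mtl-2 averages 53.2 CPM in WT-ctrl F5 and 96.8 CPM in WT-ctrl F3, and mtl-1 stays under 0.8 CPM throughout.

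Against WT-ctrl, mtl-2 had a log2 fold change of 0.95 in MUT-des at F5 (SE 0.38, edgeR adjusted p = 0.684), where the ranges of the libraries used did not overlap, and of -0.28 at F3 (SE 0.36, edgeR adjusted p = 0.938). WT-ctrl F5 replicate 2, which was left out, had 91.9 CPM from 97 counts, within the range of MUT-des F5. In WT-des it was 0.80 at F5 (SE 0.36, edgeR adjusted p = 1) and -0.68 at F3 (SE 0.33, edgeR adjusted p = 0.999), where the ranges did not overlap. The share of all genes called was 0.0315% for MUT-des at F5, 0.0504% for MUT-des at F3, and 0.0063% for WT-des at either generation. The sign of the mtl-2 value thus turned between generations in both kinds of descendant line. Its interaction with generation, tested after the values were seen, was 1.23 for MUT-des (SE 0.52, unadjusted p = 0.0303, edgeR adjusted p = 0.816) and 1.48 for WT-des (SE 0.49, unadjusted p = 0.00704, edgeR adjusted p = 1). In both interactions 0% of all genes were called by edgeR. An unadjusted p below 0.05 was found for 949 genes with MUT-des and 151 with WT-des, and the calls of DESeq2 numbered 3 and 1. All of these comparisons share the WT-ctrl libraries.

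Over both generations, mtl-2 had log2 fold changes of 0.34 in MUT-des against WT-ctrl (SE 0.26, edgeR adjusted p = 0.969; 0.176% of all genes called), 0.06 in WT-des against WT-ctrl (SE 0.24, edgeR adjusted p = 0.993; 0.0126% called) and 0.27 in MUT-des against WT-des (SE 0.25, edgeR adjusted p = 0.92; 0.12% called). Between generations, F5 against F3, it was 0.04 (SE 0.21, edgeR adjusted p = 0.917), although 2.11% of all genes were called. mtl-1 had values between -0.08 and 0.64 in these comparisons and those at single generations, with SE from 0.26 to 0.47 and no call. Its value was highest in MUT-des F3 against WT-ctrl F3, at 0.64 (SE 0.45, edgeR adjusted p = 0.889), where the 3 MUT-des libraries, at 9 to 12 counts, lay above the 4 WT-ctrl libraries, at 5 to 8 counts.

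Both genes varied together among the libraries at 20°C, but less within groups. Because mtl-1 forms separate clusters by temperature, the relation is given within each temperature. The p for levels come from permutations across groups and so include differences between groups. Over the 28 parental-conditions libraries at 20°C, Pearson's r of log2 CPM was 0.74 and Spearman's rho 0.72, with permutation p of 1e-05, the smallest that 100000 permutations can give, and 4e-05. The adjusted p over 8 correlations were 8e-05 and 0.00028, and r was 0.69 without the 2 libraries farthest from the median of mtl-1. After subtracting group means, r was 0.46 (permutation p = 0.0128, adjusted p = 0.0257) and rho 0.50 (permutation p = 0.00901, adjusted p = 0.018), with r of 0.36 without those 2. Where replicates 3 and 4 of WT F1-1DOA and WT F1-back were centred apart from replicates 1 and 2, r was 0.38 (permutation p = 0.1) and rho 0.42 (permutation p = 0.0426), with r of 0.21 without the 2 farthest, so the relation within groups did not hold by Pearson's r. Over the 8 libraries at 25°C, r was 0.45 (permutation p = 0.263, adjusted p = 0.263) and rho 0.52 (permutation p = 0.196, adjusted p = 0.224), and r was 0.20 without the 2 farthest. After subtracting group means there, r was 0.49 (permutation p = 0.0445, adjusted p = 0.0712) and rho 0.52 (permutation p = 0.0335, adjusted p = 0.0535). Over the 21 outcross libraries, r was 0.35 (permutation p = 0.118, adjusted p = 0.157) and rho 0.23 (permutation p = 0.321, adjusted p = 0.321), and r was 0.22 without the 2 farthest. The libraries share their scaling with both genes, and many of the 20°C values of mtl-1 rest on fewer than 20 counts.

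**Figure D5:**
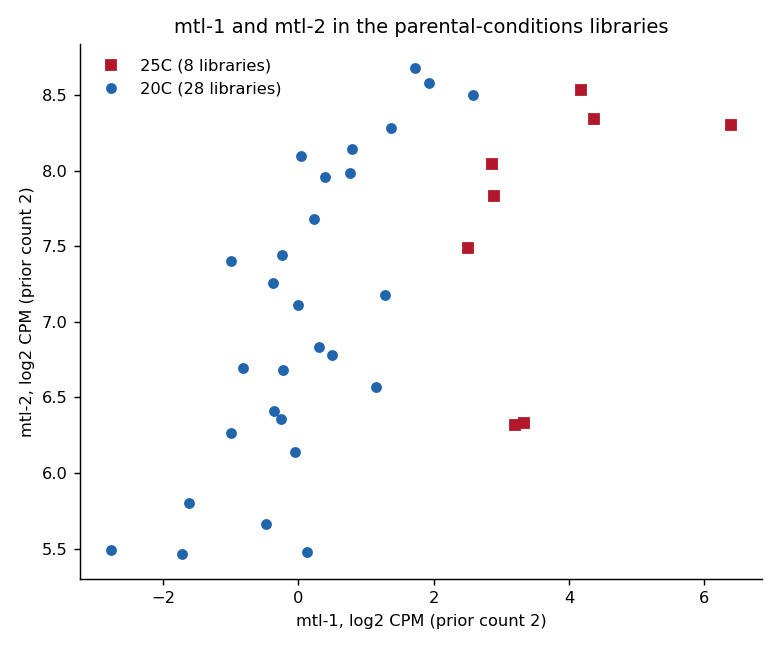
Log2 CPM (prior count of 2) of mtl-2 against mtl-1 in the 36 parental-conditions libraries, 8 at 25°C (red squares) and 28 at 20°C (blue circles). The libraries at 25°C lie to the right at like levels of mtl-2, and over the libraries at 20°C of all groups both genes rise together (r = 0.74). After subtracting group means r is 0.46, and it is 0.38 with replicates 3 and 4 centred apart.

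The genes whose log2 CPM was most like that of each member were ranked by Pearson's r among 11313 genes that averaged 50 or more counts, over the 36 parental-conditions libraries. For mtl-1 these were spp-18 (r = 0.89), Y54G2A.49 (0.84) and K02E2.6 (0.83). For mtl-2 they were hpo-18 (0.86), Y69A2AR.3 (0.83) and Y51A2D.14 (0.82). No gene was thus shared between both lists of 3. After subtracting group means, r with mtl-2 was 0.80 for hpo-18, 0.72 for Y69A2AR.3 and 0.72 for Y51A2D.14. With mtl-1 it fell to 0.58 for spp-18, 0.54 for Y54G2A.49 and 0.34 for K02E2.6, so that likeness was weaker within groups. Over the 21 outcross libraries, the most alike genes to mtl-2 were alh-5 (0.77), F49D11.6 (0.75) and F08G5.6 (0.75). For mtl-1 there, at 4 to 16 counts, they were C25A11.2 (0.63), snx-1 (0.60) and klo-2 (0.60).

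The list of other genes of zinc and cadmium handling holds 32 other genes, among them the cadmium-responsive cdr genes, the CDF and ZIP zinc transporters and genes of phytochelatin and glutathione synthesis, and 21 of them were tested. By edgeR, 0 of the 21 were called in WT F1-25C against WT F1-1DOA, where 4.99% of all genes were, and 2 had an unadjusted p under 0.05, as did 20.3% of all genes. In WT F1-back against WT F1-25C 0 were called by edgeR beside 8.23% of all genes, and 4 passed unadjusted beside 32.1%. In WT F1-back against WT F1-1DOA 0 were called by edgeR beside 0.549%, and 0 passed unadjusted beside 11.6%. In set-2 F1-25C against set-2 F1-1DOA 0 were called by edgeR beside 2.97%, and 3 passed unadjusted beside 24.5%. In WT 1DOAx1DOA against WT F1-1DOA 0 were called by edgeR beside 2.33%, and 3 passed unadjusted beside 22.9%. Over both genotypes, 0 were called by edgeR at 25°C against 1DOA beside 3.25% (2 unadjusted beside 25.6%) and 0 in 4DOA against 1DOA beside 2.12% (5 unadjusted beside 34.4%). At these shares of all genes, few or no calls among 21 genes are near the background. Its 21 tested genes had a median log2 fold change of -0.06 in WT F1-25C against WT F1-1DOA and 0.18 in WT F1-back against WT F1-25C, beside 0.00 and -0.03 over all genes. The summed level of the 25 list genes found in the files, without the metallothioneins, was 1084 ± 36.2 CPM in WT F1-25C, 1151 ± 21.7 CPM in WT F1-back and 1089 ± 40.5 CPM in WT F1-1DOA (SD, n = 4 each).

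In set-2 F1-4DOA against set-2 F1-1DOA, cdr-1, a cadmium-responsive gene, was called lower with mtl-2 (log2 fold change -1.07, SE 0.38, edgeR adjusted p = 0.0427). cdr-1 averaged 3.62 ± 1.04 CPM in set-2 F1-4DOA and 7.204 ± 7.05 CPM in set-2 F1-1DOA, where 1 library reached 17.7 CPM. It was the only one of the 21 called there, beside 5.98% of all genes called and 4.37% called lower, so this count is near that share. Whether the call of cdr-1 rests on the library at 17.7 CPM was not tested. Of the 21, 16 had a positive log2 fold change, with a median of 0.22 beside 0.05 over all genes.

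Of 9 tested genes of iron and copper handling, the heme transporter gene hrg-1 was called. It fell in WT F1-25C relative to WT F1-1DOA (log2 fold change -1.29, SE 0.30, edgeR adjusted p = 0.00503) and rose in WT F1-back relative to WT F1-25C (1.07, SE 0.29, edgeR adjusted p = 0.0111), a direction opposite to that of mtl-1. The share of all genes called was 4.99% in the first of these comparisons and 8.23% in the second. hrg-1 averaged 37.4 ± 10.02 CPM in WT F1-back, 17.9 ± 4.17 CPM in WT F1-25C and 43.6 ± 15.9 CPM in WT F1-1DOA. No gene of that list was called in the other comparisons in which a metallothionein gene was, beside 0.549% to 5.98% of all genes. Counts of this size among 9 genes are near these shares.

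Among 16 tested class I targets of DAF-16 other than the metallothioneins, 2 rose with mtl-1 in WT F1-25C relative to WT F1-1DOA and none fell, while 4.06% of all genes rose and 0.928% fell. They were sip-1, a small heat shock protein gene (log2 fold change 2.27, SE 0.52, edgeR adjusted p = 0.00538), and sod-3, a mitochondrial superoxide dismutase gene (1.01, SE 0.27, edgeR adjusted p = 0.0151). In WT F1-back relative to WT F1-25C, where 6.05% of all genes fell and 2.18% rose, 4 targets fell and none rose, namely sip-1 (-2.44, SE 0.52, edgeR adjusted p = 0.00165), sod-3 (-1.29, SE 0.27, edgeR adjusted p = 0.00116), the lysozyme gene lys-7 (-1.52, SE 0.38, edgeR adjusted p = 0.00585) and nnt-1, a mitochondrial transhydrogenase gene (-1.24, SE 0.39, edgeR adjusted p = 0.024). The median log2 fold changes of the list were 0.20 and -0.34 in these comparisons, beside 0.00 and -0.03 over all genes. In WT F1-back against WT F1-1DOA, where mtl-2 and 0.549% of all genes were called, 0 of the 16 were by edgeR (0 at an unadjusted p under 0.05, beside 11.6% of all genes). Of the tested targets, ges-1 is also among the intestine markers and ftn-1 in the iron and copper list.

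In set-2 F1-25C against set-2 F1-1DOA, where 1.99% of all genes rose and 0.98% fell, 1 target rose (nnt-1, log2 fold change 1.196, SE 0.38, edgeR adjusted p = 0.0481) and 1 fell (hsp-12.3, a small heat shock protein gene, -1.29, SE 0.26, edgeR adjusted p = 0.00208). sip-1 was at 527.5 CPM in replicate 4 of set-2 F1-25C and at 108 to 147 CPM in the other 3 libraries. In the same replicate nnt-1 was at 72.0 CPM, beside 19.9 to 35.4 CPM, and lys-7 at 378 CPM, beside 116 to 212 CPM. Whether the nnt-1 call holds without that replicate was not tested. That replicate, with 84.4 CPM of mtl-1, was the highest of its group in 13 of the 16 targets and in 32 of 34 sperm genes. It was the lowest of its group in 13 of the 21 other zinc and cadmium genes, 7 of 11 intestine markers, 7 of 9 iron and copper genes and 4 of 5 vitellogenin genes. Over all tested genes, 10 were at least 4-fold above and 5 at least 4-fold below each of the other 3 libraries. The other 35 libraries of the experiment had a median of 0 such genes in either direction and at most 66 above and 64 below, and 3 of them had as many above and 6 as many below. The gene with the largest rise was the noncoding RNA gene tts-1, at 202 CPM in replicate 4 and 3.33 to 6.96 CPM in the others, and it was named after its values were seen. The part of these differences in the mtl-1 result was not tested. In set-2 F1-4DOA against set-2 F1-1DOA, 2 targets fell with mtl-2, beside 4.37% of all genes, which were sip-1 (-2.06, SE 0.52, edgeR adjusted p = 0.00641) and lys-7 (-1.37, SE 0.38, edgeR adjusted p = 0.0121). In WT 1DOAx1DOA against WT F1-1DOA, 1 fell, beside 0.921% of all genes, the fatty acid desaturase gene fat-5 (-2.16, SE 0.35, edgeR adjusted p = 0.000426). Over both genotypes, lys-7 (1.01), nnt-1 (1.11) and sip-1 (1.34) rose at 25°C and none fell, beside 2.5% and 0.751% of all genes. All of these were highest of their group in replicate 4 of set-2 F1-25C, and their calls were not tested without it. In 4DOA against 1DOA 0 were called by edgeR, beside 2.12% of all genes (2 at an unadjusted p under 0.05, beside 34.4%).

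The summed level of the 12 intestine markers found in the files overlapped between the groups of each comparison in which a metallothionein gene was called in a single genotype. It was 6217 ± 1200 CPM in WT F1-25C, 5668 ± 807 CPM in WT F1-back and 6208 ± 1084 CPM in WT F1-1DOA (SD, n = 4 each). In WT 1DOAx1DOA it was 5276 ± 438 CPM, and in set-2 it was 6157 ± 544 CPM in F1-25C, 5544 ± 405 CPM in F1-4DOA and 5017 ± 1284 CPM in F1-1DOA. In WT F1-4DOA it was 8264 ± 1886 CPM. The largest part of the sum in WT F1-1DOA was asp-1, at 3297 CPM. In 4DOA against 1DOA over both genotypes, 10 of 11 tested markers had a positive log2 fold change (median 0.32 beside 0.05 over all genes). In set-2 F1-4DOA against set-2 F1-1DOA 10 of 11 did too (median 0.30 beside 0.05). Of 11 tested intestine markers, ifc-2, an intermediate filament gene, was the only one called in any comparison in which a metallothionein gene was. It was higher in WT F1-back than in WT F1-25C (log2 fold change 4.89, SE 0.76, edgeR adjusted p = 4.3e-05) and than in WT F1-1DOA (3.81, SE 0.67, edgeR adjusted p = 0.00118), and higher in WT 1DOAx1DOA than in WT F1-1DOA (3.96, SE 0.66, edgeR adjusted p = 0.000526). The shares of all genes called in these comparisons were 8.23%, 0.549% and 2.33%. ifc-2 averaged 2.004 ± 0.853 CPM in WT F1-back, 3.10 ± 0.978 CPM in WT 1DOAx4DOA and 2.25 ± 0.472 CPM in WT 1DOAx1DOA, against 0.129 ± 0.0906 CPM in WT F1-1DOA (SD, n = 4 each). The libraries of WT F1-1DOA held 0 to 0.196 CPM of it, which are few reads. Among the WT groups, ifc-2 was thus high in the 3 in which mtl-2 was lowest. In set-2 it averaged 0.832 CPM in F1-1DOA and 1.01 CPM in F1-25C, where mtl-2 was high at 268 and 247 CPM, and 0.927 CPM in F1-4DOA. The part of ifc-2 in the mtl-2 result was not tested.

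Genes of the germline and of yolk moved in several of these comparisons and are given because whole animals were sequenced. In WT F1-25C against WT F1-1DOA, 8 of 16 oocyte and eggshell genes and 1 of 5 vitellogenin genes rose, beside 4.06% of all genes, and 5 of 34 sperm genes fell, beside 0.928%. In WT F1-back against WT F1-25C, 11 of the oocyte and eggshell genes, 1 vitellogenin gene and 2 sperm genes fell, beside 6.05% of all genes, and in WT F1-back against WT F1-1DOA 2 sperm genes fell, beside 0.144%. In set-2 F1-4DOA against set-2 F1-1DOA, 9 oocyte and eggshell genes and 28 sperm genes fell, beside 4.37% of all genes, and 1 sperm gene rose, beside 1.61%. In set-2 F1-25C against set-2 F1-1DOA, 2 vitellogenin genes and 1 sperm gene fell, beside 0.98% of all genes, and in WT 1DOAx1DOA against WT F1-1DOA 1 sperm gene fell, beside 0.921%. Over both genotypes, 2 sperm genes fell at 25°C against 1DOA, beside 0.751% of all genes, and 5 vitellogenin genes rose and 3 sperm genes fell in 4DOA against 1DOA, beside 1.51% and 0.608%. Counts of 1 of 34 sperm genes, and of 2 beside 6.05%, are near these shares, but 2 of 34 is above 0.144% and 0.751%. In WT F1-back against WT F1-1DOA, 1 of the 34 sperm genes had a positive log2 fold change. Their median there was -0.64, beside -0.02 over all genes, and 19 had an unadjusted p under 0.05 by edgeR, beside 11.6% of all genes. The part of these differences in the metallothionein results was not tested.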

How the data were processed

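RNA was prepared from pools of mid-L4 animals, and libraries were made with a TruSeq kit that does not keep the strand and sequenced. The authors trimmed reads with Trimmomatic, aligned them with RNA STAR and counted them per gene with htseq-count against the WS220 (ce10) genome; the strand setting and the treatment of overlapping genes are not stated in what was read here. The deposited values are raw counts, 1 file per library.

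The counts were tested as deposited with edgeR 4.0.16 in R 4.3.3 (quasi-likelihood test, robust, TMM factors, filterByExpr), in 1 fit of 9 groups and 36 libraries and 1 fit of 6 groups and 21 libraries. Calls needed a Benjamini-Hochberg adjusted p under 0.05 over all tested genes and a log2 fold change beyond 1. The scripts were tested on simulated data. Ratios within a library used 0.5 added counts and exact permutation tests, and correlations used 100000 permutations of log2 CPM. Alternatives were DESeq2 1.42.0, other scalings, filters, samples and a replicate block, and each library left out. WT-ctrl F5 replicate 2 was left out for its low total. Replicates of a group are separate experiments or lines per the study's methods, and no pair of libraries agreed within sampling noise.

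The members and the gene lists were chosen with earlier results of these data known, as were the comparisons over both genotypes, the interactions with generation and the term for replicates 3 and 4. Named genes are the members, the 3 genes most alike to each member in each experiment, and up to 4 called genes of a list in comparisons with a called member; tts-1 was named after its values were seen. A description of promoter motifs was planned and not run, since no promoter sequence was used here.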

Additional observations from a re-analysis of the deposited data

Results flagged for a closer look

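In 4 cases a library stood apart from its group by more than the 95% critical value of Dixon's test allows, or lay outside the libraries used. Chance puts about 1 in 20 groups past that value. mtl-1 in set-2 F1-25C replicate 4 was at 84.4 CPM, beside 5.55 to 7.24 CPM in the other 3 libraries of the group. In the same library the log2 ratio of mtl-2 to mtl-1 was 1.90, beside 4.97 to 5.21. mtl-2 in WT 1DOAx1DOA replicate 2 was at 44.7 CPM, beside 94.96 to 103 CPM, in the library that also held 0 counts of mtl-1. mtl-2 in WT-ctrl F5 replicate 2, the library left out for its low total, was at 91.9 CPM from 97 counts, beside 40.7 to 61.7 CPM in the 3 WT-ctrl F5 libraries used.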

How the results depend on the processing

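With a library left out, 740 values kept their direction and their side of the threshold, 35 changed sign, 17 lost and 1 gained a call; under other settings 406 did, 10 changed sign, 8 lost and 3 gained a call. For mtl-1, calls were lost or gained when single libraries were left out, with log2 fold changes of 2.27 to 2.74 in WT F1-25C against WT F1-1DOA, -2.34 to -1.56 in set-2 F1-4DOA against set-2 F1-1DOA, 1.17 to 3.67 in set-2 F1-25C against set-2 F1-1DOA, -2.02 to -1.63 in 4DOA against 1DOA, both genotypes. For mtl-1, uncalled values changed sign when single libraries were left out and ranged over -0.26 to 0.51 in set-2 F1-1DOA against WT F1-1DOA, -0.39 to 0.056 in set-2 F1-4DOA against WT F1-4DOA, -1.1 to 1.3 in set-2 F1-25C against WT F1-25C, -0.40 to 1.35 in WT 1DOAx4DOA against WT 1DOAx1DOA, -0.099 to 0.35 in WT 1DOAx4DOA against WT F1-4DOA, -0.64 to 0.13 in interaction set-2 by age, -1.37 to 1.16 in interaction set-2 by temperature, -0.13 to 0.45 in MUT-des F5 against WT-ctrl F5, -0.056 to 0.25 in WT-des against WT-ctrl, -0.29 to 0.13 in WT-des F3 against WT-ctrl F3, -0.031 to 0.58 in WT-des F5 against WT-ctrl F5. For mtl-2, calls were lost or gained when single libraries were left out, with log2 fold changes of -1.74 to -1.1 in set-2 F1-4DOA against set-2 F1-1DOA, -1.27 to -0.93 in 4DOA against 1DOA, both genotypes. For mtl-2, uncalled values changed sign when single libraries were left out and ranged over -0.31 to 0.089 in set-2 F1-25C against set-2 F1-1DOA, -0.045 to 0.27 in WT 1DOAx4DOA against WT 1DOAx1DOA, -0.15 to 0.16 in WT-des against WT-ctrl, -0.099 to 0.21 in F5 against F3. For log2 ratio, uncalled values changed sign when single libraries were left out and ranged over -0.024 to 0.77 in set-2 F1-4DOA against set-2 F1-1DOA, -0.42 to 1.3 in WT 1DOAx1DOA against WT F1-1DOA, -0.33 to 0.11 in WT-des against WT-ctrl, -0.25 to 0.017 in MUT-des against WT-des.

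With only the groups compared in the fit, mtl-1 gained a call in WT F1-back against WT F1-1DOA (-2.72) and in set-2 F1-4DOA against set-2 F1-1DOA (-2.13), and calls were lost for mtl-2 in WT F1-back against WT F1-25C (-1.85), mtl-2 in set-2 F1-4DOA against set-2 F1-1DOA (-1.42) and mtl-1 in set-2 F1-25C against set-2 F1-1DOA (3.17). With DESeq2, mtl-1 gained a call in set-2 F1-4DOA against set-2 F1-1DOA (-2.12). With no filter on low counts, calls were lost for mtl-2 in set-2 F1-4DOA against set-2 F1-1DOA (-1.38) and mtl-1 in 4DOA against 1DOA over both genotypes (-1.86). The uncalled value of mtl-2 changed sign in WT-des against WT-ctrl with all 22 outcross libraries (-0.036) and in F5 against F3 with library totals (-0.075). With an offset of 5 counts, the log2 ratio changed sign in WT F1-back against WT F1-1DOA (-0.57), set-2 F1-4DOA against set-2 F1-1DOA (-0.13), WT 1DOAx1DOA against WT F1-1DOA (-0.49), MUT-des against WT-ctrl (0.058), WT-des against WT-ctrl (0.038) and MUT-des against WT-des (0.020). The correlation of deviations at 25°C, 0.49 with TMM scaling (permutation p = 0.0445), was 0.44 with library totals (permutation p = 0.0545). With replicates 3 and 4 centred apart in WT F1-1DOA, F1-25C and F1-back, it was 0.77 at 25°C (permutation p = 0.28, and -0.23 without the 2 farthest libraries) and 0.38 at 20°C (permutation p = 0.1). The cause of these changes was not tested.

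In the parental-conditions experiment, correlations of same-numbered libraries of different groups ran from -0.77 to 0.64, with a median of -0.02. No pairing by number was therefore used in the main fit. This does not test for shared batches, and replicates 1 and 2 stood apart from 3 and 4 in WT F1-1DOA, F1-25C and F1-back. A term for replicates 3 and 4 in WT F1-1DOA, F1-25C and F1-back changed no call of either gene among these groups. The replicate block changed no call and turned 2 uncalled values, mtl-1 in MUT-des F5 against WT-ctrl F5 (-0.092) and mtl-2 in WT-des against WT-ctrl (-0.10). The number of genes called moved by over 1.5 times with DESeq2 in 12 of 27 comparisons, with a mean of at least 50 counts in 17, with only the groups compared in 14 of 26, with all 22 outcross libraries in 4 of 10, with library totals, no filter and the block in 2 each, and with RLE factors in 0. At 20°C and throughout the outcross, values of mtl-1 rest on few counts.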
